A study of Mus musculus with 11 samples.

Results

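The 9 genes described here are those of microglia, the resident immune cells of the brain, and of C1q, the first component of the complement cascade: C1qa, C1qb, C1qc, Cx3cr1, Csf1r, P2ry12, Tmem119, Trem2 and Cd68. They were chosen by symbol from a table of 77179 Ensembl gene IDs, all 9 were found, and all 9 were among the 19008 genes tested. The table covers cortex and hippocampus of NEX-RiboTag mice, in which Cre expressed from the Neurod6 (NEX) locus switches on an eGFP-tagged ribosomal protein, Rpl10a, in forebrain excitatory neurons. Ribosomes pulled down with anti-GFP beads (IP) gave 3 libraries each at ages P7, P14 and P21 (postnatal days), all of genotype NEX-Cre;Rpl10aeGFP/eGFP, and whole-tissue lysate (input) gave 2 libraries at P7. Input replicate 1 had the genotype of the IP libraries and input replicate 2 lacked Cre (Rpl10aeGFP/eGFP), so the tag allele was shared by all 11 libraries. The labels call the IP libraries biological replicates and do not say how many animals each one pools.

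Microglia do not arise from the lineage that expresses Neurod6, so their ribosomes are not expected to carry the tag, and their transcripts mark what a pull-down holds beside neuronal RNA. C1q is built from A, B and C chains encoded by adjacent genes. In the developing brain it is made largely by microglia, tags synapses and starts the cascade that leads through C4 and C3 to engulfment by microglia that carry complement receptor 3. Neurons address the same cells through fractalkine (Cx3cl1), the ligand of Cx3cr1, and through interleukin 34 (Il34), which shares the receptor Csf1r with the cytokine Csf1.

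Values are TPM (a relative abundance scaled for transcript length within each library), which keep no record of depth. Genes at 1 TPM or more numbered 15154 to 17793 by library. Rpl10a, the gene that carries the tag, ranged from 487 to 996 TPM in input and from 3365 to 3814 TPM in P7 IP. The excitatory neuron gene Slc17a7 ranged from 515 to 724 TPM in P7 IP and from 514 to 560 TPM in input, and the inhibitory neuron gene Gad1 from 4.73 to 8.06 TPM and from 68.0 to 71.1 TPM. Changes are differences of log2(TPM + 1) with the standard error of a limma fit over all 11 libraries, a scale that understates changes of low values, and a gene is said to be higher or lower, or to have risen or fallen, at an adjusted p below 0.05 over all genes tested. Slc17a7 did not pass in P7 IP against input (0.21, limma adjusted p = 0.124). Of 15 excitatory neuron markers 5 were higher and 5 lower there (median -0.002). Over all genes 18.6% were higher and 51.1% lower.

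Promoters of 6 of the 9 genes were matched by symbol in a RefSeq table of build GRCm38.p6, an older build than that of the expression values, and run from 250 bases before to 50 bases after the start of the gene. They were searched on both strands for GAGGAA, the core recognised by the myeloid transcription factor PU.1, and for TATAAA, the TATA box, motifs that do not overlap each other in these windows. Those of 4 genes are shown, with GAGGAA or its reverse complement in capitals: those of 2 C1q genes that moved together, of Cd68, whose levels differed from those of the others, and of Cx3cr1, which has no match.
C1qb, chr4:136886151-136886450, minus strand: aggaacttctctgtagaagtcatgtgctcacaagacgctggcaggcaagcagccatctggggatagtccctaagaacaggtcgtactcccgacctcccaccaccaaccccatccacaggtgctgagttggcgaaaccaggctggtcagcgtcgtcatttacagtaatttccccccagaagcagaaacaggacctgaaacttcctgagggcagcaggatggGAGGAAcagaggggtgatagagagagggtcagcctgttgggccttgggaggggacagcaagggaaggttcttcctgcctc
C1qc, chr4:136892865-136893164, minus strand: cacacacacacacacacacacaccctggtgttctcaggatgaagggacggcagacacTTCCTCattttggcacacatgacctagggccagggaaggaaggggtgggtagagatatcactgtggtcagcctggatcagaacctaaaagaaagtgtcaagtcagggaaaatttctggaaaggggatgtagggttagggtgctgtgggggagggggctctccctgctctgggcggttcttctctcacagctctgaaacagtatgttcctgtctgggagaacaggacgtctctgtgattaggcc
Cd68, chr11:69666121-69666420, minus strand: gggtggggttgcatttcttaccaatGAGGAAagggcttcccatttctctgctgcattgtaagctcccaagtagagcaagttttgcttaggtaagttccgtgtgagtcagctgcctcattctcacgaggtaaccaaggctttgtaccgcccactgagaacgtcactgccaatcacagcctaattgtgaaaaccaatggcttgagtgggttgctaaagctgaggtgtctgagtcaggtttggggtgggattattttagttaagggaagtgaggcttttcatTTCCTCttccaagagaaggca
Cx3cr1, chr9:120068247-120068546, minus strand: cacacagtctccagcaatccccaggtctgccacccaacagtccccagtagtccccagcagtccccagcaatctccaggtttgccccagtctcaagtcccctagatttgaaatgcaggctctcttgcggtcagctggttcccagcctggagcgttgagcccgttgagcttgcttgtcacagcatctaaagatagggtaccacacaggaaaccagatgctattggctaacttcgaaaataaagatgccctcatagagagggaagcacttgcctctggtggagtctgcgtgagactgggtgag
The match in C1qb began 30 bases before the start and that in C1qc 193 bases before it. Cd68 held 2, the first 225 bases before the start and the second after it, from base 30 of the gene. Trem2 also held a match and P2ry12 held none, so 4 of 6 promoters had one, beside 28.3% of 32851 promoters of the same length. TATAAA was in 0 of the 6, beside 13.6% of all. C1qa, Csf1r and Tmem119 were not searched. The search of the 9 genes left out the chromosome of Csf1r, which the shares over all promoters kept. Whether a promoter of Csf1r holds a match was thus not tested.

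P7 IP was set against P7 input to see how much microglial RNA the pull-down held relative to the tissue. All 9 genes were lower in IP, by a median of -3.29 on the log2 scale, against a median of -0.33 over all genes tested, of which 51.1% were lower and 18.6% higher. Markers of other cell types were also lower there, 16 of 16 for astrocytes (median -3.15) and 15 of 15 for inhibitory neurons (median -2.60). For oligodendrocytes 10 of 12 were lower (median -1.90) and for endothelial cells 12 of 13 (median -1.99). Every IP library lay below both inputs for 9 of 9, as it did for 56.3% of all genes tested. These changes compare pulled-down RNA with lysate RNA of the same age and do not measure numbers of microglia. How microglial RNA came into IP was not tested. In bulk samples fewer cells of a type and less RNA per cell cannot be told apart.

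The C1q chains were the most abundant of the 9 in the tissue. C1qa (ENSMUSG00000036887) was at 34.2 and 39.3 TPM in input and at 1.49, 3.28 and 2.56 TPM in P7 IP. C1qb (ENSMUSG00000036905) was at 30.7 and 39.7 TPM in input and at 1.37, 2.12 and 1.50 TPM in IP. C1qc (ENSMUSG00000036896) was at 31.2 and 38.2 TPM in input and at 1.45, 1.79 and 0.971 TPM in IP. Every IP library was thus far below both inputs, and the second IP library was the highest of the 3 for each chain. The log2 changes were -3.49 ± 0.23 for C1qa (limma adjusted p = 4.19e-07), -3.76 ± 0.19 for C1qb (7.08e-08) and -3.90 ± 0.19 for C1qc (7.62e-08). C1qc had the largest fall of the 9 on the log2 scale and the largest ratio of mean TPM, with an input mean 24.7 times that of IP.

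The surface receptors followed. Csf1r (ENSMUSG00000024621), the receptor that microglia need for survival, was at 15.8 and 21.2 TPM in input and at 0.587, 1.01 and 0.680 TPM in P7 IP. P2ry12 (ENSMUSG00000036353), a purinergic receptor that directs microglial processes towards ATP and ADP, was at 13.1 and 19.5 TPM in input and at 0.626, 0.865 and 0.745 TPM in IP. Cx3cr1 (ENSMUSG00000052336), the fractalkine receptor, was at 10.2 and 14.1 TPM in input and at 0.547, 0.905 and 0.561 TPM in IP. These 3 receptors stood at 4.10%, 4.57% and 5.53% of their input means. Their log2 changes were -3.47 ± 0.18, -3.29 ± 0.15 and -2.97 ± 0.15 (limma adjusted p = 8.96e-08, 5.07e-08 and 8.37e-08).

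Trem2 (ENSMUSG00000023992), a lipid-sensing receptor that signals through Tyrobp, was at 9.06 and 12.3 TPM in input and at 0.663, 0.981 and 0.933 TPM in P7 IP. Tmem119 (ENSMUSG00000054675), a membrane protein used to tell microglia from other macrophages, was at 4.82 and 6.19 TPM in input and at 0.221, 0.311 and 0.214 TPM in IP. Both were lower, by -2.64 ± 0.18 and -2.37 ± 0.17 (limma adjusted p = 4.83e-07 and 8.59e-07). Cd68 (ENSMUSG00000018774), a glycoprotein of lysosomes and late endosomes abundant in phagocytes, was at 9.09 and 9.81 TPM in input and at 3.84, 3.90 and 3.66 TPM in IP. Its fall of -1.12 ± 0.09 (limma adjusted p = 1.69e-06) was the smallest of the 9. Cd68 in P7 IP stood at 40.2% of input, and the other 8 genes at 4.05% to 8.03%, with a median of 4.65%. In order of mean TPM, Cd68 went from eighth of 9 in input to first in IP, ahead of C1qa.

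**Figure D1:**
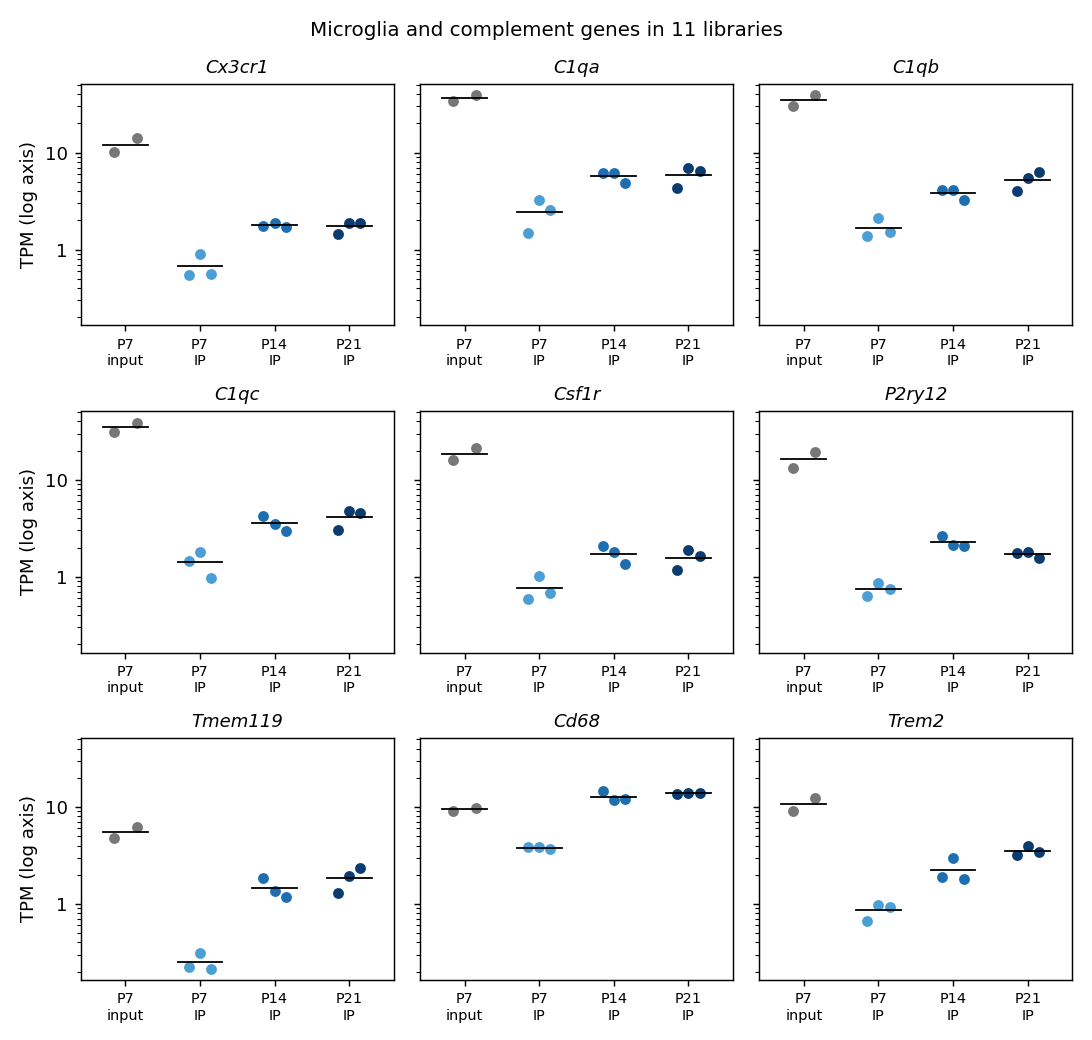
TPM (log axis) of the 9 genes in each of the 11 libraries, 1 dot per library and a line at the group mean, for P7 input (n = 2) and for IP at P7, P14 and P21 (n = 3 each). All genes but Cd68 are highest in input and lowest in P7 IP; Cd68 is higher in P14 and P21 IP, at 11.9 TPM or more, than in input.

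P14 IP was set against P7 IP to follow these transcripts in the pull-down over the second postnatal week. All 9 rose, where 26.7% of all genes tested rose and 22.8% fell, and every P14 library lay above every P7 library for 9 of 9, as for 31.1% of all genes tested. The median change was 0.90 against 0.03 over all genes. In TPM the rise ran from 2.28-fold for Csf1r to 5.89-fold for Tmem119, with a median of 2.60-fold.

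C1qa reached 6.15, 6.15 and 4.82 TPM at P14, C1qb 4.10, 4.16 and 3.21 TPM, and C1qc 4.20, 3.54 and 2.97 TPM. The third P14 library was the lowest for each chain, and still above every P7 IP library. The chains rose by 0.99 ± 0.20, 0.86 ± 0.17 and 0.93 ± 0.17 (limma adjusted p = 0.00223, 0.00143 and 0.00118). Of the summed TPM of the 3 chains, C1qa made up 33.5% to 35.6% in input, 34.6% to 50.9% in P7 IP, 42.6% to 44.4% in P14 IP and 37.3% to 40.5% in P21 IP. C1qc made up 32.5% to 32.6% in input and 19.3% to 33.7% over the 9 IP libraries. The chains were thus nearly even in the tissue, and C1qa was the most abundant in each of the 9 IP libraries.

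Among the receptors, P2ry12 stood at 2.60, 2.11 and 2.09 TPM at P14 and rose by 0.90 ± 0.14 (limma adjusted p = 0.000273). Cx3cr1 stood at 1.73, 1.89 and 1.70 TPM and rose by 0.74 ± 0.13 (limma adjusted p = 0.000979). Csf1r stood at 2.05, 1.80 and 1.35 TPM and had the smallest rise, 0.63 ± 0.16 (limma adjusted p = 0.00686). All 3 receptors remained well under their input levels, at 13.9%, 14.6% and 9.35% of them. Trem2 stood at 1.90, 3.00 and 1.81 TPM and rose by 0.79 ± 0.16 (limma adjusted p = 0.00193). Tmem119 stood at 1.84, 1.36 and 1.19 TPM and rose by 0.97 ± 0.15 (limma adjusted p = 0.000408). Cd68 stood at 14.6, 11.9 and 11.9 TPM and had the largest rise on the log2 scale, 1.52 ± 0.08 (limma adjusted p = 4.01e-07). At 135% of its P7 input mean, it was the only one of the 9 whose P14 libraries lay above the P7 input libraries. Whole tissue of P14 and P21 was not analysed here, so whether these genes also rose in the tissue was not tested.

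**Figure D2:**
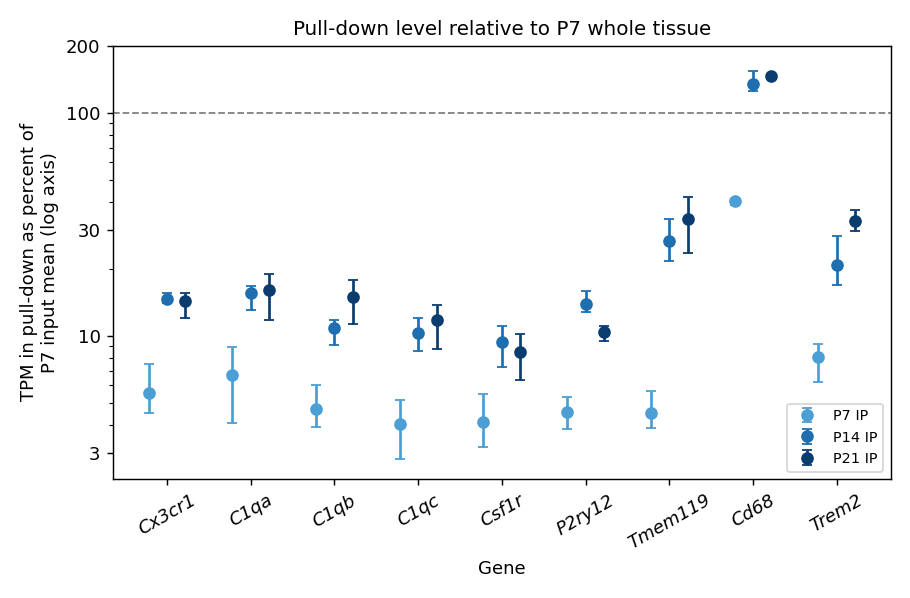
Mean TPM of each of the 9 genes in IP at P7, P14 and P21 as a percent of its mean in P7 input (log axis); bars run from the lowest to the highest of 3 libraries, and the dashed line marks the input level. At P7, 8 genes lie at 4.05% to 8.03% and Cd68 at 40.2%; at P14 and P21 Cd68 lies above the line and the others between 8.46% and 33.6%.

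P21 IP was then set against P14 IP to follow them over the third week. Trem2 was the only one of the 9 that rose, to 3.17, 3.95 and 3.46 TPM, above all 3 P14 libraries. Its change of 0.50 ± 0.16 had a limma adjusted p of 0.0387, and the call was lost without P14 IP replicate 1 (0.43, adjusted p = 0.11), P14 IP replicate 3 (0.41, adjusted p = 0.13), P21 IP replicate 1 (0.56, adjusted p = 0.0566), replicate 2 (0.43, adjusted p = 0.125) or replicate 3 (0.51, adjusted p = 0.0735). Over all genes 8.53% rose and 19.7% fell in that week, and 0 of the 9 fell, by the adjusted limma test or at an unadjusted p below 0.05. P2ry12, at 1.74, 1.81 and 1.55 TPM, lay below all 3 P14 libraries, with a change of -0.27 ± 0.14 that did not pass (limma adjusted p = 0.163). C1qb, at 3.99, 5.45 and 6.28 TPM, changed by 0.36 ± 0.17 (limma adjusted p = 0.134), and passed without P21 IP replicate 1 (0.51, adjusted p = 0.0484). Tmem119 stood at 1.29, 1.94 and 2.32 TPM and changed by 0.20 ± 0.15 (limma adjusted p = 0.369). C1qa (0.03 ± 0.20), C1qc (0.15 ± 0.17), Cx3cr1 (-0.02 ± 0.13) and Csf1r (-0.09 ± 0.16) had changes smaller than their standard errors. Cd68, at 13.7, 13.9 and 13.9 TPM, varied least among replicates, with a coefficient of variation of 0.742% against 7.69% to 28.1% for the other 8, and changed by 0.11 ± 0.08 (limma adjusted p = 0.343).

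Over both weeks all 9 were higher at P21 than at P7, where 27.3% of all genes were higher and 32.6% lower. The changes ran from 0.54 ± 0.16 for Csf1r (limma adjusted p = 0.0124) to 1.63 ± 0.08 for Cd68 (5.64e-08), with Trem2 at 1.28 ± 0.16 and C1qb at 1.22 ± 0.17. A moderated F test over the 3 ages passed for all 9, as for 62.6% of all genes (limma adjusted p from 1.02e-07 for Cd68 to 0.0098 for Csf1r), and for 8 of 9 with a pseudocount of 5 TPM. These age comparisons share libraries. In the test of the P14 to P21 change minus the P7 to P14 change, 3 of the 9 were lower (Cd68, P2ry12 and Cx3cr1) and none higher, where 16.8% of all genes were lower and 7.46% higher. The call of Csf1r at P21 against P7 was lost without P21 IP replicate 2 (0.45, adjusted p = 0.0515).

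**Figure D3:**
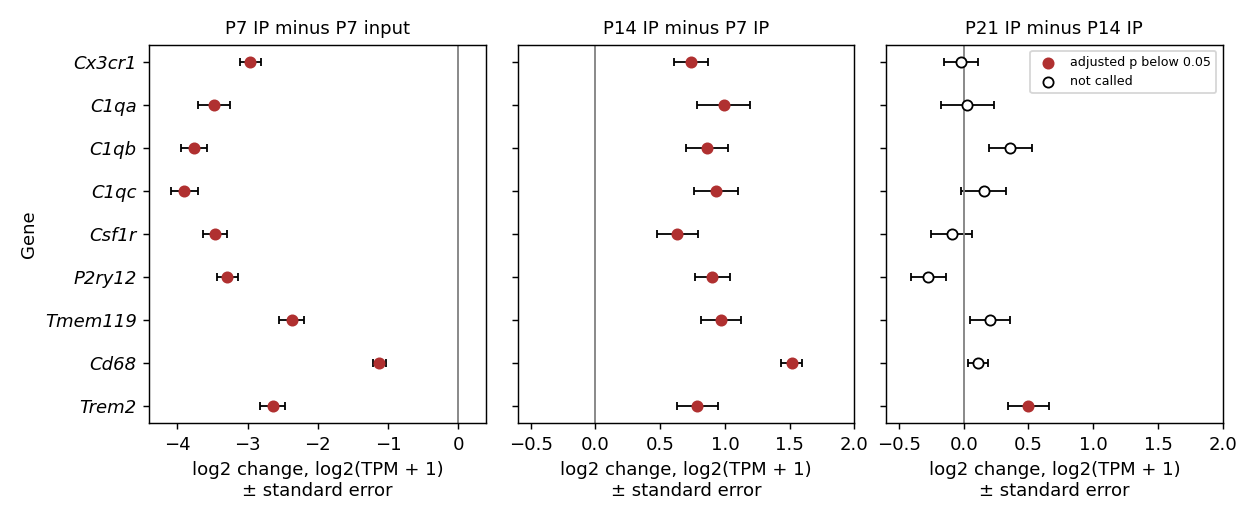
Log2 changes of the 9 genes, on the log2(TPM + 1) scale with standard errors, in P7 IP against P7 input, P14 IP against P7 IP and P21 IP against P14 IP; filled dots passed at an adjusted p below 0.05 and the left axis spans a wider range. All 9 pass as lower in the left panel and as higher in the middle one, and in the right one only Trem2 passes.

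Within groups the same libraries tended to be high or low for most of the 9. P7 IP replicate 2 was the highest of its group for 9 of 9 genes, P14 IP replicate 3 the lowest for 8 of 9 and P21 IP replicate 1 the lowest for 8 of 9. The same libraries were the highest for 14, the lowest for 13 and the lowest for 10 of 16 astrocyte markers, and the highest for 10, the lowest for 10 and the lowest for 12 of 12 oligodendrocyte markers. Among 13 endothelial markers they were the highest for 11, the lowest for 3 and the lowest for 11, and among 15 inhibitory neuron markers the highest for 10, the lowest for 11 and the lowest for 12. Input replicate 2, which lacked Cre, was the higher of the 2 inputs for 9 of 9 genes. It was also the higher for 15 of 16 astrocyte, 10 of 12 oligodendrocyte, 10 of 13 endothelial and 8 of 15 inhibitory neuron markers. Shares over all genes were not taken for these ranks, and the part of the genotype was not tested. Summed over the 9 genes, the level was 158 and 200.3 TPM in input, 10.8 to 15.2 TPM in P7 IP, 31.1 to 39.1 TPM in P14 IP and 33.9 to 42.5 TPM in P21 IP. Cd68 alone made up 4.90% and 5.75% of that sum in input and 25.7% to 40.4% in the IP libraries.

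Markers of other cell types changed in the pull-down over the same ages, and their part in the changes of the 9 genes was not tested. From P7 to P14, 26.7% of all genes tested rose and 22.8% fell, to be set beside the counts that follow. The 16 astrocyte markers summed to 172 to 238 TPM in P7 IP, 408 to 487 TPM at P14 and 538 to 697 TPM at P21, and 14 of 16 rose from P7 to P14 (median 0.85), led by the calcium-binding protein gene S100b (2.31). The 12 oligodendrocyte markers summed to 33.1 to 37.6, 309 to 418 and 530 to 765 TPM, and 11 of 12 rose (median 2.23), led by the myelin gene Mobp (4.95). Of 13 endothelial markers 3 rose and none fell (median 0.20), with sums of 78.1 to 97.6, 124 to 139 and 150.3 to 170 TPM. The 15 inhibitory neuron markers gave 4 rises and 3 falls (median -0.06), with sums of 151 to 165, 131 to 146 and 134 to 160.3 TPM. No marker of these 4 lists was at 0 in all libraries of a group. Of 10 markers of macrophages at the brain's borders, such as Mrc1 and Pf4, 6 were tested. All 6 were lower in P7 IP than in input, as were 51.1% of all genes. From P7 to P14 limma called 0 of them (median 0.11), with 2 higher at an unadjusted p below 0.05. The 10 summed to 2.62 to 3.01 TPM in P7 IP and 3.07 to 4.48 TPM in P14 IP. Each of the 10 had a mean below 1 TPM in both groups, where log2(TPM + 1) understates changes. In TPM the median ratio of P14 IP to P7 IP was 1.38 for the 6 at 1 TPM or more in input.

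**Figure D4:**
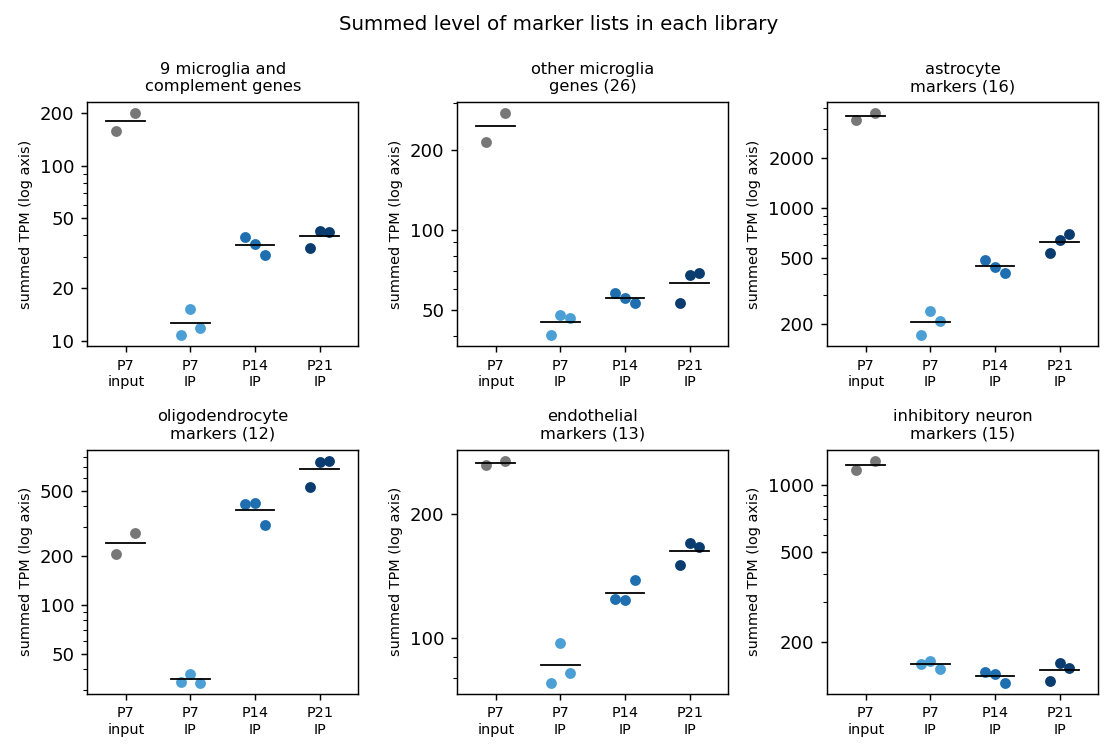
Summed TPM (log axis, a different range in each panel) of the 9 genes and of 5 marker lists in each library, with a line at the group mean. The sum of the 9 genes, of other microglia genes, of astrocyte, oligodendrocyte and endothelial markers is higher in each P14 IP library than in any P7 IP library, and that of inhibitory neuron markers is not.

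Other genes of microglia were read from a list of 26, of which 24 were tested. In P7 IP 22 of the 24 were lower than in input (median -2.07), where 51.1% of all genes were lower and 18.6% higher. The largest falls were those of the protease gene Ctss (-3.75 ± 0.14) and the lysosomal membrane gene Laptm5 (-3.24 ± 0.19). Tyrobp, the signalling partner of Trem2, stood at 25.3 and 29.7 TPM in input and at 2.37, 3.36 and 2.47 TPM in P7 IP. Spi1, which encodes PU.1, was at 4.45 TPM in input and 0.309 TPM in P7 IP, and Itgam, a chain of complement receptor 3, at 2.16 and 0.0776 TPM. The 2 that did not pass were Slc2a5, a sugar transporter gene, and Inpp5d, a phosphatase gene, which stood at 6.61 TPM in input and 6.15 TPM in IP. From P7 to P14, 13 of 24 rose (median 0.38), among them Selplg (0.94 ± 0.18) and Cd52 (0.81 ± 0.23) and 2 fell, among them Slc2a5 (-0.52 ± 0.15). Over all genes 26.7% rose and 22.8% fell in that week. From P14 to P21 Aif1, which encodes the marker protein Iba1, rose from 3.84 to 8.24 TPM, Cd52 also rose, and Fcgr3 fell.

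The rest of the complement cascade was low. Of 20 genes listed 10 were tested, and 16 had a mean under 1 TPM in P7 IP. C4b, which C1q activation cleaves, stood at 2.13 and 2.65 TPM in input and at 0.193, 0.194 and 0.142 TPM in P7 IP. C3, the centre of the cascade, did not exceed 0.253 TPM in any library and was not tested. From P7 to P14, 2 of the 10 rose, C2 (0.48 ± 0.18) and C1ra (0.32 ± 0.10), and Masp1, a serine protease gene of the lectin pathway, fell from 19.0, 17.8 and 15.2 TPM to 5.36, 5.68 and 5.58 TPM (-1.48 ± 0.09, limma adjusted p = 9.03e-07). Masp1 was at 17.5 and 18.9 TPM in input, and unlike the C1q chains did not pass in IP against input (-0.07 ± 0.11). Of 17 regulators listed 15 were tested, and 5 rose and 4 fell from P7 to P14 (median 0.02). Over all genes 26.7% rose and 22.8% fell in that week. Sez6l2, a membrane protein with complement control repeats, went from 81.4 to 154 TPM (0.91 ± 0.08), and Susd4, a complement inhibitor, from 69.9 to 124 TPM (0.82 ± 0.07). Cr1l, which encodes the regulator Crry, fell from 15.1 to 10.3 TPM and Cd55 from 7.72 to 5.47 TPM.

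Of 7 ligands of microglial receptors listed, all tested, 4 were lower and 1 higher in P7 IP than in input, and 3 rose and 1 fell from P7 to P14. Over all genes, 51.1% were lower and 18.6% higher in the first comparison, and 26.7% rose and 22.8% fell in the other. Cx3cl1, the ligand of Cx3cr1, was at 180.4 and 216 TPM in input and lower in P7 IP, at 130 to 162 TPM (-0.41 ± 0.11, limma adjusted p = 0.00573). It rose to 491 to 563 TPM at P14 (1.81 ± 0.10, limma adjusted p = 4.01e-07) and 598 to 673 TPM at P21 (0.29 ± 0.10, adjusted p = 0.0474). Il34 was at 27.5 and 44.1 TPM in input and 31.1 to 50.9 TPM in P7 IP, where it did not pass (0.20 ± 0.20), and rose to 163 to 172 TPM at P14 (2.02 ± 0.18, limma adjusted p = 7.33e-06). Csf1, the other ligand of Csf1r, was lower in P7 IP, at 1.36 to 1.58 TPM, than in input, at 6.15 and 6.64 TPM (-1.60 ± 0.11, limma adjusted p = 7.54e-07), and did not pass from P7 to P14 (0.16 ± 0.10). The 2 ligands of Csf1r thus stood far apart in the IP libraries, where those of Il34 and Csf1 did not overlap at any age. Cd200, which restrains microglia through a receptor of their surface, fell from 282 to 314 TPM at P7 to 148 to 176 TPM at P14 and 87.7 to 99.8 TPM at P21, with changes of -0.83 ± 0.08 and -0.81 ± 0.08 (limma adjusted p = 9.55e-06 and 7.77e-05). Cd47, a signal against engulfment, rose from 55.0 to 77.8 TPM at P7 to 99.1 to 131 TPM at P14 (0.73 ± 0.19, limma adjusted p = 0.00916). At P21 it stood at 56.8 to 100.3 TPM, and neither the change from P14 (-0.56 ± 0.19, limma adjusted p = 0.0546) nor that from P7 (0.18 ± 0.19, adjusted p = 0.459) passed. Sirpa, the receptor of Cd47, which neurons also express, rose from 98.3 to 112 TPM at P7 to 254 to 265 TPM at P14 (1.28 ± 0.06, limma adjusted p = 2.44e-07) and fell to 209 to 230.5 TPM at P21 (-0.22 ± 0.06, adjusted p = 0.0207). The growth factor genes Tgfb1 and Tgfb2 were lower in P7 IP than in input (-1.70 ± 0.22 and -1.24 ± 0.14) and did not pass between successive ages.

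**Figure D5:**
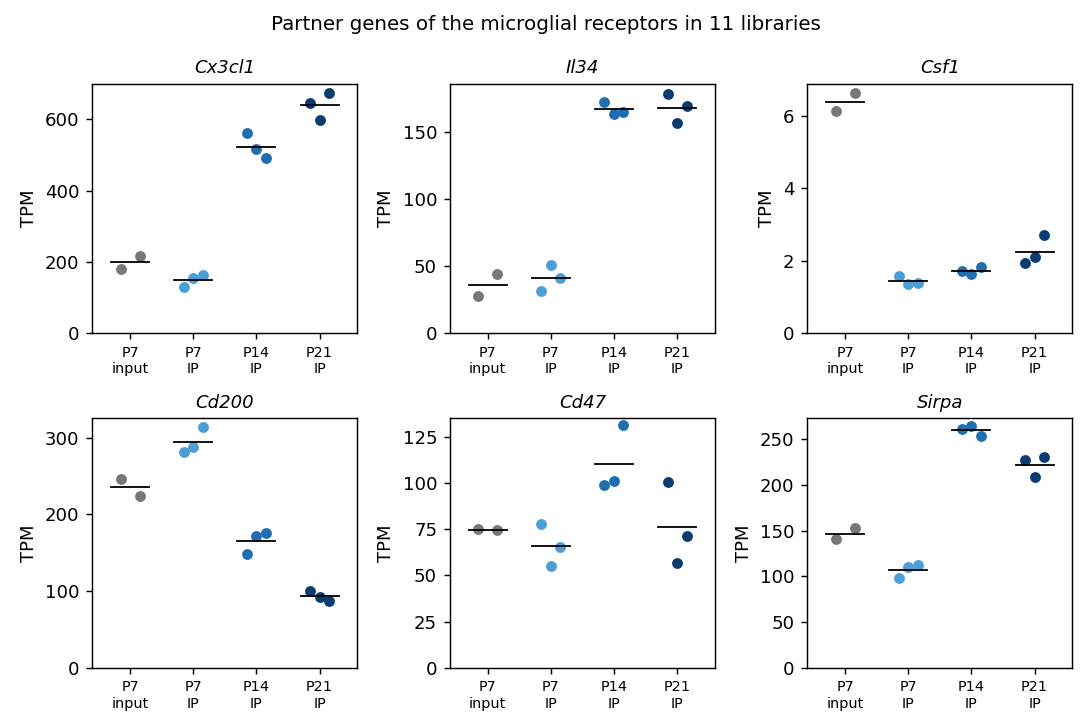
TPM (linear axes from 0, a different range in each panel) of 5 ligands and 1 receptor, Sirpa, in each library, with a line at the group mean. Cx3cl1 and Il34 are higher in every P14 and P21 IP library than in any P7 library, Csf1 is highest in the 2 input libraries, and Cd200 is lower at each later age.

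The neighbours of the 9 genes were taken from the same RefSeq table. C1qa, C1qc and C1qb follow one another with no other gene between them. P2ry12 overlaps Med12l, at 3.89 TPM in input and 1.28, 1.92 and 2.16 TPM in P7, P14 and P21 IP. Cx3cr1 overlaps the long noncoding RNA gene Gm33858, and Csf1r overlaps Mir6983 and Gm52352. These are overlaps of whole gene spans, overlap of exons was not tested, and the strand setting of the counting is not known here. Cd68 overlaps no listed gene and lies beside Eif4a1, a translation initiation factor gene that went from 563 to 373 and 309 TPM over the 3 ages while Cd68 rose. Tmem119 lies beside Iscu, which went the same way as Tmem119, from 150 to 264 and 326 TPM in P7, P14 and P21 IP.

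By likeness of profile, the genes closest to the mean of the 9 over the 9 IP libraries, among 10933 eligible, included Gal3st1, Pmm1, Hepacam, Fndc5, Ubald1, Mlc1 and Fgf1, with Pearson correlations of 0.986 to 0.992 that rest on 3 ages and share libraries. Hepacam, an adhesion protein of astrocytes, went from 3.19 to 7.21 and 8.21 TPM. Over all 11 libraries, where the gap between input and IP weighs in, the closest genes included Hepacam, 4 mitochondrially encoded genes (mt-Nd4, mt-Nd2, mt-Nd1 and mt-Cytb), Ctso and Fyco1, at correlations of 0.993 to 0.997. Of the 9 genes themselves, 8 had correlations of 0.959 to 0.989 with that mean profile over the 11 libraries, and Cd68 had 0.507. Over the 9 IP libraries alone all 9 had 0.907 to 0.985, with Cd68 at 0.969. Each of the 9 is part of the mean it is set against, so high values are partly built in.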

How the data were processed

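Polyadenylated RNA was sequenced from 9 pull-down and 2 whole-tissue libraries, per the labels' protocols. The authors deposited TPM values for 77179 Ensembl gene IDs; fastp 1.0.1, Salmon 1.10.0, DESeq2 1.46.0 and build mm39 are named in the submitters' processing notes, and the notes give no role for each tool; annotation and strand setting were not given in the sources used. Because TPM is a share of each library, a change in a few abundant genes moves the rest, and depth is unknown; precision comes from the spread between replicates. Symbols matched 50886 IDs. The test covered genes reaching 1 TPM in 2 or more libraries, on log2(TPM + 1) with limma 3.58.1 in R 4.3.3, with 1 mean per group over 11 libraries (7 residual degrees of freedom); variances were moderated with a mean trend and p-values adjusted by Benjamini-Hochberg. P-values measure the spread between these libraries.

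The 9 genes and all lists were chosen with earlier results of these data known. Named were the 9 genes, a fixed set of ligands and controls, the 2 largest rises and falls per list among called genes, and the 8 genes most alike. Inpp5d, Mrc1, Pf4, Med12l, Eif4a1 and Iscu were chosen after their values were seen. Some genes the rule names are not reported here. The fit was tested on simulated data. Alternatives were pseudocounts, filters, scalings, moderation, a replicate block, the groups fitted and each library left out. Figures used matplotlib 3.10.9 in Python 3.11.15.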

Additional observations from a re-analysis of the deposited data

Results flagged for a closer look

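Of the 9 genes, 3 changed differently in the 2 weeks by a test of the difference itself, the change from P14 to P21 minus that from P7 to P14 in IP. For Cd68 it was -1.41 ± 0.14 (limma adjusted p = 0.00027), for P2ry12 -1.18 ± 0.23 (limma adjusted p = 0.00544) and for Cx3cr1 -0.76 ± 0.23 (limma adjusted p = 0.0374). In that test 16.8% of all genes were lower and 7.46% higher. The call of Cx3cr1 was lost without either of P7 IP replicates 1 and 3, any of the 3 P14 IP libraries, or P21 IP replicates 1 and 2 (adjusted p from 0.0533 to 0.122). Its call was also lost with both scalings (-0.67, adjusted p = 0.061, and -0.69, adjusted p = 0.0539). Testing all genes unfiltered ended it as well, at an adjusted p of 0.0978. Adding 5 TPM in place of 1 before taking logs ended the calls of both Cx3cr1 (-0.27, adjusted p = 0.164) and P2ry12 (-0.46, adjusted p = 0.0549). For the other 6 genes the difference lay below 0 and did not pass, from -0.29 ± 0.27 for Trem2 to -0.96 ± 0.35 for C1qa. With groups of 3 or fewer libraries, no single library was tested for standing apart.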

How the results depend on the processing

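All 9 genes were lower in P7 IP than in input, and higher at P14 and P21 than at P7, in all alternatives that tested all 9, except that at P21 against P7 Csf1r and P2ry12 did not pass with a pseudocount of 5 TPM (0.19, adjusted p = 0.0699, and 0.22, adjusted p = 0.052) and Csf1r did not without P21 IP replicate 2. With a mean of at least 5 TPM only 4 of the 9 were tested, and all 4 passed in each of these comparisons and over the 3 ages. The 1 gene called higher at P21 than at P14, Trem2, became 0 with a pseudocount of 5 TPM, with no filter, with a mean of at least 5 TPM (where Trem2 was not tested) and with only the groups compared, and ranged from 0 to 1 with each library left out. The 3 genes with a lower second step became 1 with a pseudocount of 5 TPM and ranged from 2 to 4 with each library left out. Scaling moved the background: in P7 IP against input, median-of-ratios scaling shifted the median of all genes from -0.33 to 0.06 and gave 6828 higher and 5556 lower genes in place of 3541 and 9718, and quantile normalisation gave 6256 and 6025; the 9 stayed lower, Cd68 at -0.69 and -0.55. In P21 against P14, median-of-ratios scaling gave 2690 higher and 2257 lower genes in place of 1621 and 3749; for unequal steps it gave 2266 and 1984 in place of 1418 and 3195. A mean of at least 5 TPM left 5421 lower genes of 10856 in P7 IP. For unequal steps 870 genes were higher without P14 IP replicate 1 and 2064 lower without P14 IP replicate 2. Same-numbered libraries of different groups had deviations correlated at -0.10 to 0.18, over 0.1 in 1 of 15 pairs, against 3 of 30 pairs of other numbers. Deviations sum to 0 within groups of 2 or 3 libraries, so this cannot decide whether the numbers pair them. With the replicate number as a block 9, 9, 1 and 9 genes were called in the 4 comparisons, and 4 had a lower second step. In P7 IP 5 of the 9 had means below 1 TPM, where the pseudocount sets much of the log2 change.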

Other observations

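Cd68 is a lysosomal protein, and other lysosomal genes moved in both directions. Of 20 listed, 9 rose and 4 fell from P7 to P14 (median -0.01), among them Psap, from 468 to 750.4 TPM, and Cd63, from 29.6 to 13.5 TPM. In P7 IP 19 of 20 were lower than in input and Npc2 was higher, with levels of 10.9% to 137% of input (median 46.5%). Over all genes 26.7% rose and 22.8% fell from P7 to P14. In P7 IP 51.1% of all genes were lower than in input and 18.6% higher.

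Of 12 genes listed for the phagocytic state of microglia 8 were tested. All 8 were lower in P7 IP than in input (median -2.09), as were 51.1% of all genes. From P7 to P14, 2 rose, Apoe (0.75) and Axl (0.31), and 2 fell, the lipase gene Lpl (-1.03) and Lgals3 (-0.77). The shares over all genes were 26.7% and 22.8%. Apoe is also an astrocyte marker and Lpl is also made by neurons.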
